A study of Mus musculus with 8 samples.

Results

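The genes described here are 10 genes of MHC class I antigen presentation, the heavy chain genes *H2-K1*, *H2-D1*, *H2-T23* and *H2-Q7*, the light chain gene *B2m*, the peptide transporter genes *Tap1* and *Tap2*, *Tapbp*, *Nlrc5* and *Erap1*. They were found by their symbols, and all 10 were present among the 54532 genes of the table. Their levels were measured by RNA-Seq in 8 libraries of LSK cells, the bone marrow cells without lineage markers that carry c-Kit and Sca-1, where hematopoietic stem cells and their earliest progeny are found. The cells came from C57BL/6 mice aged 8 to 12 weeks with the genotype Zeb1 fl/fl;Mx1-Cre+/-, in which pIpC, a double-stranded RNA analog, had been given to delete *Zeb1*, and they were taken 14 days after its last dose. They had been sorted by surface EpCAM, an epithelial adhesion protein, into an EpCAM+ fraction (4 libraries) and an EpCAM- fraction (4 libraries). Both fractions were Zeb1-/- and both had been exposed to pIpC, and no library from control mice was analysed here. Mx1-Cre is driven by an interferon-responsive promoter and is not restricted to stem cells.

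MHC class I molecules carry peptides from inside the cell to its surface, where CD8+ T cells and natural killer cells read them. Proteasomes and cytosolic peptidases supply the peptides, the TAP transporter moves them into the endoplasmic reticulum, aminopeptidases trim them there, and tapasin with other chaperones loads them onto a heavy chain bound to beta-2-microglobulin. The transactivator NLRC5 raises transcription of many of these genes through a module of short elements in their promoters, and interferons raise most of them. Nearly all nucleated blood cells, stem cells included, carry class I at the surface.

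Promoter windows from RefSeq (GRCm38.p6, 250 bases before to 50 after an annotated start) were available for 8 of the 10 genes, and none was available for *Tap2* or *Nlrc5*. The windows of the classical and nonclassical heavy chain genes, of *B2m* and of *Erap1* are printed because the first 5 of these genes were higher in EpCAM+ cells and *Erap1* did not pass the test. Capitals mark exact matches, on either strand, to GGGATTCC (the kappa B site of class I enhancer A), TGACG (the core of the X2 box), ATTGG (the Y box, CCAAT on the other strand) and GAAANNGAA (the core of an interferon-stimulated response element, ISRE). The *H2-K1* window is chr17:34000284-34000583 on the minus strand, the *H2-D1* window chr17:35262844-35263143 on the plus strand and the *H2-Q7* window chr17:35438905-35439204 on the plus strand. The *B2m* window is chr2:122147437-122147736 on the plus strand, the *H2-T23* window chr17:36032652-36032951 on the minus strand and the *Erap1* window chr13:74639603-74639902 on the plus strand.
H2-K1: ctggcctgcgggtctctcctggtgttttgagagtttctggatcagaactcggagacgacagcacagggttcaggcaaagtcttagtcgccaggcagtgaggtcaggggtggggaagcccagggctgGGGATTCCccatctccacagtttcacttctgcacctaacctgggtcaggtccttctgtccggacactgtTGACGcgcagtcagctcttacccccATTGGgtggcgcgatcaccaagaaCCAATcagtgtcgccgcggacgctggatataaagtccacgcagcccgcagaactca
H2-D1: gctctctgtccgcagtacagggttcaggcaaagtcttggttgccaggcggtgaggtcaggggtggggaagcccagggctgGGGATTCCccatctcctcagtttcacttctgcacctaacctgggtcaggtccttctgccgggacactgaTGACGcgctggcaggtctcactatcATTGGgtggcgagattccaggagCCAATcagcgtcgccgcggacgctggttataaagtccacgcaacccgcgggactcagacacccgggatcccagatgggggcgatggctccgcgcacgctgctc
H2-Q7: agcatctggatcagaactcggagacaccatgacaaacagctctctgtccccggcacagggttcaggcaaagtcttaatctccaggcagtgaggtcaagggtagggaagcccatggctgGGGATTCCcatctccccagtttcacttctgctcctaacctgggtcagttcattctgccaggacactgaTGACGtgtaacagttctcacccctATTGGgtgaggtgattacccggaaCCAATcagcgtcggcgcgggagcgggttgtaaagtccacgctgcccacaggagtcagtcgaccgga
B2m: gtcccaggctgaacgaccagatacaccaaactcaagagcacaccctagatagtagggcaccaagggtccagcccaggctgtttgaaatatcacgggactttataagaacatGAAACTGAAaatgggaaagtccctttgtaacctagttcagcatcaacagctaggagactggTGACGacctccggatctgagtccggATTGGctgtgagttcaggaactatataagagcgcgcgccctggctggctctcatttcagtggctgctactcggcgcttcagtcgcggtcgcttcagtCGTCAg
H2-T23: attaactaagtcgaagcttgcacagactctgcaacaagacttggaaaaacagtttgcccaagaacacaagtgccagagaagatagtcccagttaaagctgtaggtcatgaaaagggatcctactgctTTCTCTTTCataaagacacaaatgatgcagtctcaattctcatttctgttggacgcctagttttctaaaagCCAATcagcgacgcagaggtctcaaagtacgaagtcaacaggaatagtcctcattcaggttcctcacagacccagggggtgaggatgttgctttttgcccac
Erap1: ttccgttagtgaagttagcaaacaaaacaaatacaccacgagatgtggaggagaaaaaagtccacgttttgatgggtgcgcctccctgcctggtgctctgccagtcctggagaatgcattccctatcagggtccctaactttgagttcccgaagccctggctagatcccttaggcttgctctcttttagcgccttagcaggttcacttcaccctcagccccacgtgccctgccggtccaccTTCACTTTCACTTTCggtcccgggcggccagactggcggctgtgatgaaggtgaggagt

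The windows of *H2-K1*, *H2-D1* and *H2-Q7* held the same elements in the same order, GGGATTCC, then TGACG, then ATTGG, then CCAAT. In *H2-K1* these began 124, 55, 30 and 6 bases before the annotated start, with GGGATTCC first. GGGATTCC or its reverse was in 1.06% of all 32851 windows of the table and in 4 of the 9 windows of the members, which include a second, overlapping *H2-K1* window. The *B2m* window had TGACG and ATTGG 25 bases apart, start to start, as did *H2-K1* and *H2-D1*, and *H2-Q7* had them 24 bases apart. That spacing, which was noted after the matches had been seen, occurred in 43 of the 32851 windows (0.131%). TGACG alone was in 20.8% of all windows and in 6 of the 9 windows of the members, and ATTGG in 37.4% and in 8 of 9. The ISRE core as spelled here, GAAANNGAA or its reverse TTCNNTTTC, was in 8.56% of all windows. Among the members it was in *H2-T23*, in *B2m* and, as a pair of overlapping matches, in *Erap1*. Other spellings of the element were not searched. The stretch tttcacttc, which follows GGGATTCC in *H2-K1*, *H2-D1* and *H2-Q7*, was therefore left unmarked, and these 3 windows cannot be read as lacking an ISRE. The gamma-activated sequence TTCNNNGAA was in 8.30% of all windows and in 0 of the 9. The *Tap1* window held 1 TGACG and 1 CCAAT, in the reverse order, and the *Tapbp* window held ATTGG at 2 places.

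All 10 genes were covered well enough to be tested, at a depth of 15225714 to 17073546 counts in EpCAM+ libraries and 14114491 to 15929923 in EpCAM- libraries. Levels are given as CPM, the counts scaled to a common total by TMM library sizes, and folds and adjusted p-values come from edgeR's quasi-likelihood test across 13560 genes with Benjamini-Hochberg adjustment. The sorted antigen was recovered, with *Epcam* at 187 ± 32.7 CPM in EpCAM+ and 3.86 ± 3.61 in EpCAM- libraries (SD, n = 4). *Zeb1* mRNA was at 19.5 ± 3.75 and 11.9 ± 2.14 CPM (SD, n = 4), which does not check the deletion, since both fractions carry it. *Kit* was at 285 and 208 CPM, while *Ly6a*, which encodes Sca-1, was at 201 ± 106 and 41.3 ± 29.4 CPM (SD, n = 4). Of 12 markers of LSK cells, 10 were higher in EpCAM+ cells and 0 lower, so that the sorted type's own markers also differed between the fractions.

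Of the 10 class I presentation genes, 6 were higher in EpCAM+ cells, 0 were lower and 4 did not pass the test. The share of all tested genes that were higher was 21.8%, and 20.8% were lower. In the same 6 genes all 4 EpCAM+ values lay above all 4 EpCAM- values, which held for 20.1% of all tested genes. The median log2 fold change was 0.45 over the 10 genes and 0.02 over all tested genes, and the estimate was above 0 in all 10. The genes that rose encode the 4 heavy chains, their light chain and the transactivator, whereas the genes for the transporter, for tapasin and for the trimming peptidase did not pass. With the replicate number as a block, *Tap1* and *Tapbp* passed too, and 8 of the 10 were higher. Over the whole table the blocked fit called 3465 genes higher and 3353 lower, against 2961 and 2818 without the block. Together the 10 genes took 1.74% ± 0.116 of all counts in EpCAM+ and 1.18% ± 0.116 in EpCAM- libraries (SD, n = 4). In RNA from sorted bulk cells, more cells of a type and more RNA per cell cannot be told apart. Upper-quartile scaling moved the whole table to 3642 higher and 2083 lower genes, against 2961 and 2818 with TMM, and shifted the median of all tested genes to 0.11, and the median of the 10 genes was then 0.53 with 7 higher.

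**Figure D1:**
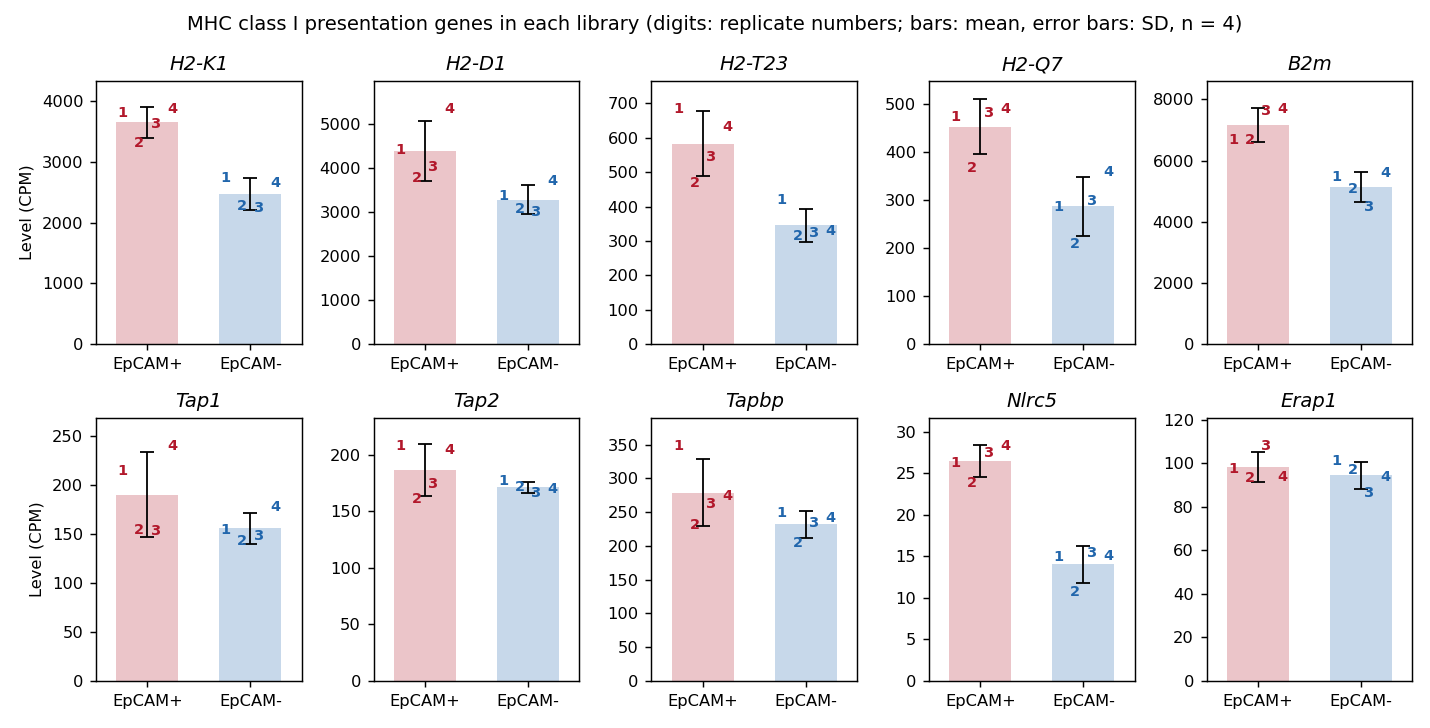
Level in CPM (vertical axes, linear from 0) of each of the 10 genes in the 4 EpCAM+ (red) and 4 EpCAM- (blue) libraries, with replicate numbers as symbols, means as bars and SD as error bars. The fractions do not overlap for *H2-K1*, *H2-D1*, *H2-T23*, *H2-Q7*, *B2m* and *Nlrc5*, and overlap for *Tap1*, *Tap2*, *Tapbp* and *Erap1*.

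Among the heavy chains, *H2-K1* (ENSMUSG00000061232, chromosome 17, 33996017 to 34000333, minus strand, GRCm38), which encodes the classical molecule H-2K, was at 3810, 3310, 3630 and 3870 CPM in EpCAM+ libraries 1 to 4 and at 2740, 2270, 2240 and 2650 CPM in EpCAM- libraries 1 to 4. The lowest EpCAM+ library stood above the highest EpCAM- library. The level was 3660 ± 255 CPM against 2470 ± 259 (SD, n = 4), 1.48-fold higher, with a log2 fold change of 0.56 (SE 0.10, 95% interval 0.34 to 0.79, edgeR adjusted p = 0.00187). *H2-D1* (ENSMUSG00000073411, chromosome 17, 35262730 to 35267499, plus strand), the gene of the other classical molecule of this strain, H-2D, was at 4410, 3770, 4010 and 5330 CPM in EpCAM+ and at 3360, 3060, 2990 and 3700 CPM in EpCAM- libraries. The fractions were separated by a small gap, between EpCAM- library 4 and EpCAM+ library 2. The fold was 1.34 (log2 fold change 0.42, SE 0.12, 95% interval 0.14 to 0.70, edgeR adjusted p = 0.0214). This call was lost without EpCAM- replicate 2 (log2 fold change 0.38, edgeR adjusted p = 0.0552) and without EpCAM- replicate 3 (0.37, edgeR adjusted p = 0.0719). A fit of all libraries blocked on replicate number gave 0.41 (SE 0.06, edgeR adjusted p = 0.00067).

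The nonclassical genes had the larger estimates. *H2-T23* (ENSMUSG00000067212, chromosome 17, 36029773 to 36032855, minus strand) encodes Qa-1, which presents leader peptides of other class I chains to natural killer cell receptors. It was at 683, 470, 544 and 632 CPM in EpCAM+ and at 418, 314, 322 and 328 CPM in EpCAM- libraries. Every EpCAM+ library was above every EpCAM- library, and EpCAM- library 1 stood above the other 3 of its fraction. The fold was 1.69 (log2 fold change 0.75, SE 0.13, 95% interval 0.46 to 1.05, edgeR adjusted p = 0.00163). *H2-Q7* (ENSMUSG00000060550, chromosome 17, 35439155 to 35443773, plus strand), a Qa-2 gene, was at 473, 368, 482 and 490 CPM in EpCAM+ and at 286, 209, 298 and 359 CPM in EpCAM- libraries. Here the gap between the fractions was narrow, 368 against 359 CPM, and library 2 was the lowest of each fraction. The fold was 1.58 (log2 fold change 0.66, SE 0.15, 95% interval 0.32 to 1.00, edgeR adjusted p = 0.00682).

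*H2-Q7* shares sequence with related genes. Of the 150-base windows in its annotated transcripts (GENCODE M21), 5.90% also occurred in other genes, most often *H2-Q10*, *H2-Q6* and *H2-Q5*. Of the 250-base windows 0.495% occurred in *H2-Q6* or *H2-Q10*. The value of *H2-Q7* is uncertain where reads fall there. *H2-Q6* was at 446 ± 78.3 and 249 ± 81.3 CPM (SD, n = 4), close to *H2-Q7* in each fraction, with a log2 fold change of 0.84 (edgeR adjusted p = 0.0156). The sum of both genes was 899 ± 135 CPM in EpCAM+ and 536 ± 141 in EpCAM- libraries (SD, n = 4), without overlap. *H2-Q7* took 49.0 to 52.8% of that sum in EpCAM+ and 49.8 to 60.7% in EpCAM- libraries, with overlap. The other heavy chains shared little exact sequence, with 1.35% of *H2-D1* windows found in *H2-Q1*, 0.331% of *H2-T23* windows found in *Gm7030* and 0 of 4369 *H2-K1* windows found in another gene, and over 250 bases all 3 shared 0 windows. *B2m* and *Nlrc5* shared 0 windows with other genes, and *Tap1* shared 1.04%, with *Psmb9*.

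*B2m* (ENSMUSG00000060802, chromosome 2, 122147686 to 122153083, plus strand) encodes beta-2-microglobulin, the light chain that all of these heavy chains need to reach the surface, and it lies outside the MHC. It was at 6690, 6670, 7610 and 7680 CPM in EpCAM+ and at 5450, 5060, 4480 and 5580 CPM in EpCAM- libraries. All EpCAM+ libraries were above all EpCAM- libraries, with EpCAM- library 3 the lowest. The level was 7160 ± 559 CPM against 5140 ± 495 (SD, n = 4), 1.39-fold higher (log2 fold change 0.48, SE 0.10, 95% interval 0.25 to 0.71, edgeR adjusted p = 0.00491).

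*Nlrc5* (ENSMUSG00000074151, chromosome 8, 94434356 to 94527272, plus strand), which encodes the class I transactivator, had the largest estimate of the 10 genes at a low level. It had 403, 420, 490 and 437 counts in EpCAM+ and 238, 144, 225 and 205 counts in EpCAM- libraries, or 26.3, 23.8, 27.4 and 28.3 CPM against 14.9, 10.7, 15.4 and 15.1 CPM. The gap between the fractions was wider than the spread within either, and EpCAM- library 2 stood below the other 3. The fold was 1.89 (log2 fold change 0.92, SE 0.13, 95% interval 0.63 to 1.2, edgeR adjusted p = 0.000572). The estimate ranged from 0.74 to 1.01 over 19 alternatives and passed in all 19.

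The transporter genes lie in the class II region on either side of *Psmb8*. *Tap1* (ENSMUSG00000037321, chromosome 17, 34187553 to 34197225, plus strand) was at 214, 154, 153 and 240 CPM in EpCAM+ and at 154, 143, 148 and 178 CPM in EpCAM- libraries. EpCAM+ libraries 1 and 4 stood above all EpCAM- libraries, and libraries 2 and 3 lay among them. The log2 fold change was 0.29 (SE 0.15, 95% interval -0.04 to 0.62, edgeR adjusted p = 0.135). A fit blocked on replicate number gave 0.27 (SE 0.08, edgeR adjusted p = 0.026), past the threshold, and without EpCAM+ replicates 1 and 4 it was -0.02 (edgeR adjusted p = 0.89). *Tap2* (ENSMUSG00000024339, chromosome 17, 34203527 to 34216321, plus strand), the other subunit, was at 208, 161, 174 and 204 CPM in EpCAM+ and at 177, 172, 166 and 170 CPM in EpCAM- libraries. Again EpCAM+ libraries 1 and 4 were the highest, and the EpCAM- libraries hardly varied. The log2 fold change was 0.12 (SE 0.09, 95% interval -0.07 to 0.32, edgeR adjusted p = 0.279).

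*Tapbp* (ENSMUSG00000024308, chromosome 17, 33915899 to 33929288, plus strand) encodes tapasin, which holds empty class I molecules at the transporter. It was at 348, 231, 262 and 274 CPM in EpCAM+ and at 248, 204, 234 and 241 CPM in EpCAM- libraries. Only EpCAM+ library 2 lay within the EpCAM- range. The log2 fold change was 0.27 (SE 0.12, 95% interval -0.00 to 0.53, edgeR adjusted p = 0.0994). It passed with the replicate block (0.25, SE 0.07, edgeR adjusted p = 0.0142) and without EpCAM+ replicate 2 (0.35, edgeR adjusted p = 0.0395). Of the 150-base windows of its transcripts, 398 of 3948 also occurred in *Gm19412*.

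*Erap1* (ENSMUSG00000021583, chromosome 13, 74639568 to 74693201, plus strand), the aminopeptidase that trims peptides in the endoplasmic reticulum, was at 97.6, 93.3, 108 and 93.8 CPM in EpCAM+ and at 101, 96.9, 86.5 and 93.6 CPM in EpCAM- libraries. The values were intermixed. The log2 fold change was 0.06 (SE 0.08, 95% interval -0.11 to 0.22, edgeR adjusted p = 0.578), an interval that lay below the intervals of *H2-K1*, *H2-T23*, *H2-Q7*, *B2m* and *Nlrc5*. Its transcripts shared 9.43% of their 150-base windows with *Cast*, and how reads there were counted is not given in the sources used here.

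**Figure D2:**
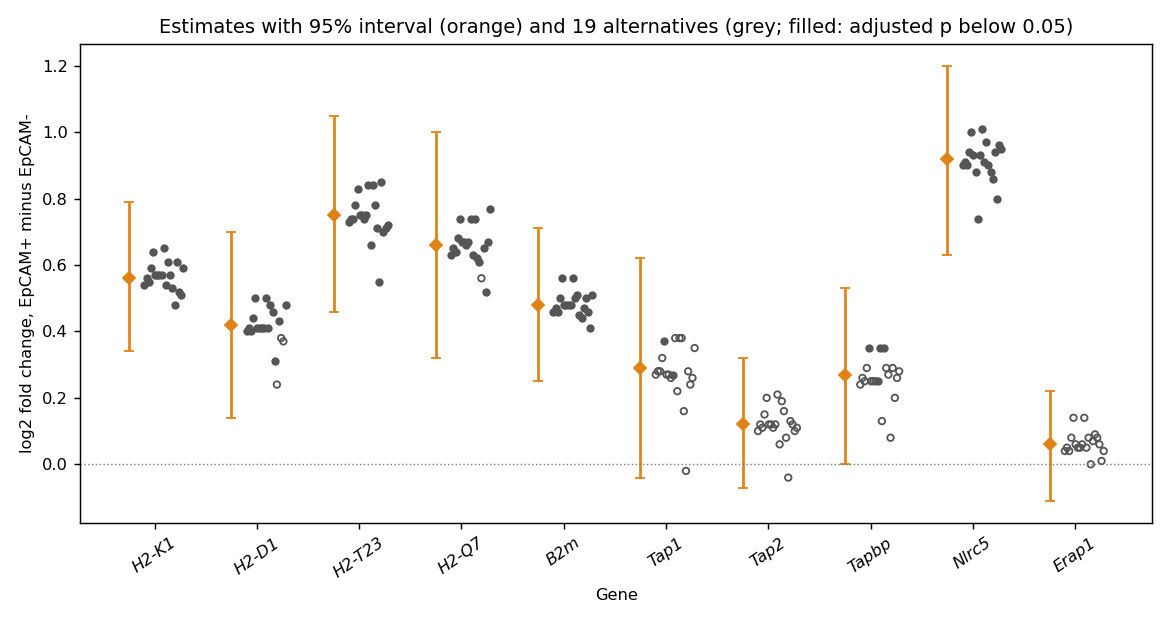
Log2 fold change of EpCAM+ minus EpCAM- (vertical axis) for each gene, with the edgeR estimate and its 95% interval as an orange diamond and bar, and the estimates of 19 alternative fits as grey points, filled where the adjusted p was below 0.05. *Nlrc5*, *H2-T23*, *H2-K1* and *B2m* passed in all 19, *H2-Q7* in 18, *H2-D1* in 16, *Tapbp* in 4, *Tap1* in 2, and *Tap2* and *Erap1* in 0.

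Levels of different genes were compared per kilobase of the deposited gene length. In EpCAM+ libraries *B2m* led with 8330 ± 649 CPM per kilobase (SD, n = 4), followed by *H2-D1* with 1700 ± 266 and *H2-K1* with 1400 ± 97.9. *H2-D1* and *H2-K1* overlapped, as did *H2-Q7* and *Tapbp*, and *Tap2* and *Tap1*, so the order within these pairs was not resolved. *H2-T23* followed at 202 ± 32.6, *H2-Q7* at 106 ± 13.4 and *Tapbp* at 84.6 ± 15.1 CPM per kilobase. *Tap2* at 49.4 ± 6.03, *Tap1* at 34.8 ± 7.98, *Erap1* at 13.5 ± 0.950 and *Nlrc5* at 3.12 ± 0.229 CPM per kilobase closed the order. In EpCAM- libraries the order was the same except that *Tapbp*, at 70.3 ± 5.89, and *H2-Q7*, at 67.5 ± 14.5, changed places within their spread. The deposited FPKM imply other gene lengths, and the length column was up to 4.18 times the implied length, for *Erap1*. It was 2.86 times for *H2-D1* and 1.0 times for *B2m*, so the lead of *B2m* was smaller by FPKM, 8540 against 4960 in EpCAM+ libraries. By FPKM 2 genes took another rank in each fraction. *Tapbp* stood above *H2-Q7* in EpCAM+ and above *H2-T23* in EpCAM- libraries.

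**Figure D3:**
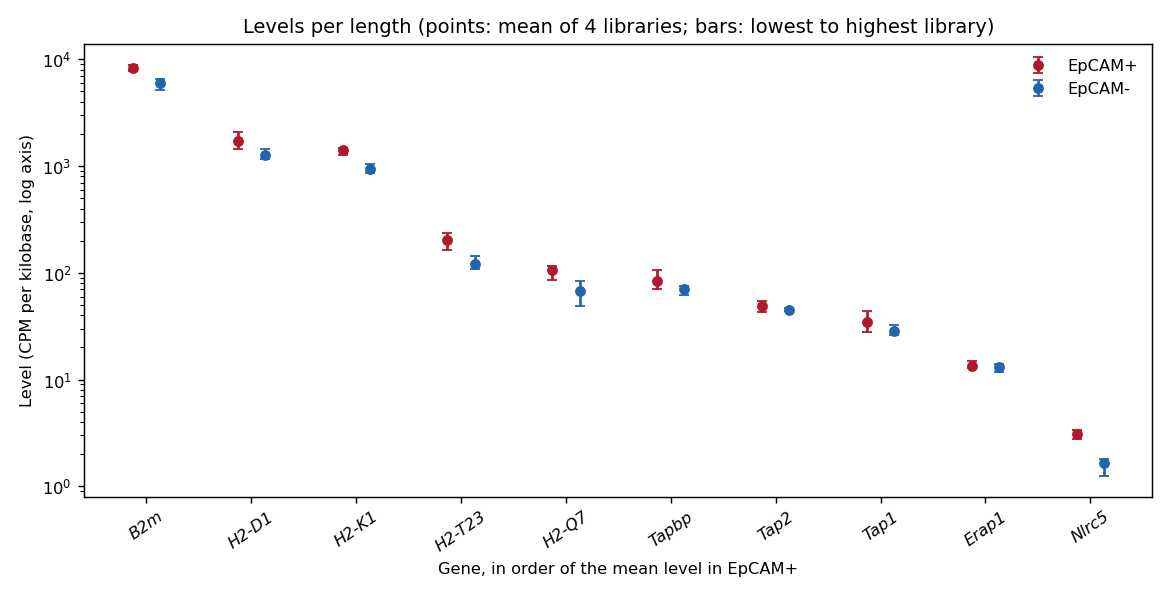
Level in CPM per kilobase (vertical axis, log scale) of the 10 genes in EpCAM+ (red) and EpCAM- (blue) libraries, as the mean of 4 libraries with bars from the lowest to the highest library. *B2m* was at 8330 and *Nlrc5* at 3.12 CPM per kilobase in EpCAM+ libraries.

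Ratios within a library do not depend on the scaling, and 4 of them were put to an exact permutation test, two-sided, whose smallest possible p is 0.0286. Counts of *H2-K1* and *H2-D1* together were 1.00 to 1.23 times those of *B2m* in EpCAM+ and 1.05 to 1.17 times in EpCAM- libraries. The log2 ratio of these heavy chain counts to *B2m* thus differed between the fractions by 0.00 (exact p = 1.0, adjusted p = 1.0), although each of these genes was itself higher in EpCAM+ cells. The ratio of *H2-K1* to *H2-D1* was 0.727 to 0.904 in EpCAM+ and 0.717 to 0.814 in EpCAM- libraries (log2 difference 0.16, exact p = 0.114, adjusted p = 0.229), higher in EpCAM+ cells in 4 of 4 numbered pairs. The ratio of *Tap1* to *Tap2* differed by 0.15 (exact p = 0.286, adjusted p = 0.381). The replicate numbers paired the libraries, and within the 4 pairs *Nlrc5* was 0.83 to 1.16 higher on the log2 scale, *H2-T23* 0.58 to 0.95 higher and *H2-K1* 0.48 to 0.70 higher in the EpCAM+ library. *Tap1* and *Tapbp* were also higher in 4 of 4 pairs, by 0.05 to 0.48 and 0.16 to 0.49, whereas *Tap2* was higher in 3 pairs and *Erap1* in 2.

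Class II presentation genes were higher in EpCAM+ cells in 10 of 10 cases (median log2 fold change 3.28), led by *H2-Eb1* (6.08), *H2-Ab1* (4.53) and *H2-Aa* (5.40), which encode chains of the class II molecules, while *Ciita*, the gene of their transactivator, had a log2 fold change of 4.29. Their summed level was 17200, 1790, 4920 and 17800 CPM in EpCAM+ and 959, 606, 592 and 623 CPM in EpCAM- libraries. The class I sum was 17000, 15300, 17000 and 18800 CPM against 13000, 11500, 11000 and 13300 CPM, so that it differed far less between EpCAM+ libraries than the class II sum did. EpCAM+ libraries 1 and 4, with the most class II counts, were also the highest of the 4 for *H2-K1*, *H2-D1*, *H2-T23*, *Tap1*, *Tap2* and *Tapbp*. This did not hold for *H2-Q7*, *B2m*, *Nlrc5* or *Erap1*. Without these 2 libraries, a comparison added after the values had been seen, *H2-K1*, *H2-T23*, *B2m* and *Nlrc5* still passed, *H2-Q7* (log2 fold change 0.56, edgeR adjusted p = 0.0564) and *H2-D1* (0.24, edgeR adjusted p = 0.136) did not, and the count was 4 of 10, against 8 of 10 for class II genes, with 1819 higher and 1856 lower genes in the whole table. Markers of conventional dendritic cells were higher in 8 of 9 tested cases, with a summed level of 988 to 4420 CPM in EpCAM+ and 541 to 824 CPM in EpCAM- libraries. Among the 8 was *Flt3*, which also counts among the higher LSK markers. Over all tested genes 21.8% were higher. Plasma cell markers rose in 3 of 5 tested cases, from 171 to 259 CPM in EpCAM- to 388 to 3980 CPM in EpCAM+ libraries, and 2 of 4 tested B cell markers rose, from 46.9 to 79.7 CPM to 72.3 to 122 CPM, with *Pax5* at 0 counts in every library. Of 8 tested neutrophil markers 3 were lower, *Mpo*, *Prtn3* and *Elane*, and 5 were not called. Their sum, 1040 to 1600 CPM in EpCAM+ and 10700 to 17100 CPM in EpCAM- libraries, was mostly *Mpo*, a gene of early granulocytes. Of 7 tested erythroid markers 6 were lower and 1, *Hbb-bt*, higher, with a sum of 94.4 to 285 CPM in EpCAM+ and 2030 to 6890 CPM in EpCAM- libraries. The part of these cell types in the class I levels was not tested.

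**Figure D4:**
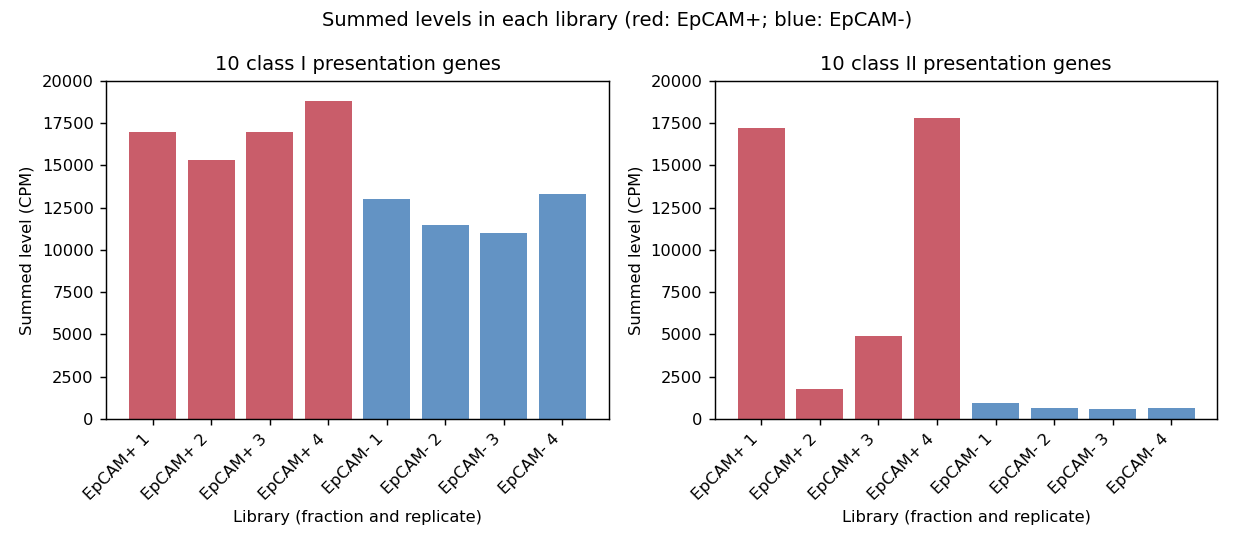
Summed level in CPM (vertical axes, linear from 0) of the 10 class I presentation genes and of 10 class II presentation genes in each EpCAM+ (red) and EpCAM- (blue) library. The class I sum was 15300 to 18800 CPM in EpCAM+ and 11000 to 13300 CPM in EpCAM- libraries, and the class II sum 1790 to 17800 CPM and 592 to 959 CPM.

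Of 34 other heavy chain and heavy chain-like genes listed, 28 were in the table and 15 were tested, of which 9 were higher and 0 lower, and 6 did not pass, among them *H2-T24* at -0.37 (edgeR adjusted p = 0.163), with a median log2 fold change of 0.72. *Fcgrt*, the gene of the neonatal Fc receptor, rose by 2.56 on the log2 scale (edgeR adjusted p = 0.000509), *H2-K2* by 1.09 (edgeR adjusted p = 0.00117) and *Mr1*, whose product presents microbial vitamin metabolites, by 0.71 (edgeR adjusted p = 0.00281). *H2-M3*, which presents formylated peptides, was at 71.7 ± 11.6 and 47.8 ± 7.26 CPM (SD, n = 4), a log2 fold change of 0.58 (edgeR adjusted p = 0.00746). *H2-M1*, *H2-M2*, *H2-M9* and *H2-M11* were at 0 counts in all 8 libraries. The count was 5 without EpCAM+ replicates 1 and 4.

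Of 18 tested genes of factors that bind class I promoters or belong to PRC2, 4 were higher and 3 lower, with a median log2 fold change of 0.03, close to the shares and the median over all tested genes (21.8% higher, 20.8% lower, 0.02). The interferon regulatory factor gene *Irf2* was higher (0.83, edgeR adjusted p = 0.000397), and so were *Irf1* (0.61, edgeR adjusted p = 0.0149) and the NF-kappa B genes *Relb* (1.56, edgeR adjusted p = 0.00172) and *Nfkb2* (0.62, edgeR adjusted p = 0.00596). *Rfx5*, which encodes a subunit of the X box binding complex that NLRC5 joins, was at 11.5 to 13.2 CPM in EpCAM+ and 7.92 to 11.5 CPM in EpCAM- libraries, and its estimate was 0.29 (95% interval -0.02 to 0.59, edgeR adjusted p = 0.123). *Atf1* (-0.37), *Nfyc* (-0.36), which encodes a subunit of the CCAAT-binding factor, and *Ezh2* (-0.22), the methyltransferase gene of PRC2, were lower, with edgeR adjusted p-values of 0.00412, 0.00496 and 0.0201.

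Interferon-stimulated genes were higher more often than lower, while the count of higher signalling genes changed with single libraries. Of all tested genes 21.8% were higher and 20.8% lower. Of 12 receptor and signalling genes 5 were higher and 1 lower, and 9 were higher with the replicate block, but 2 without EpCAM+ replicate 1, 2 without EpCAM- replicate 3 and 3 without EpCAM- replicate 4. *Socs1*, a feedback inhibitor of the pathway, had a log2 fold change of 1.07 (edgeR adjusted p = 0.00285), *Irf9* of 0.60 (edgeR adjusted p = 0.0127) and the receptor chain gene *Ifnar1* of 0.37 (edgeR adjusted p = 0.0168). *Ifngr1*, the ligand-binding chain of the interferon gamma receptor, was lower (-0.61, edgeR adjusted p = 0.0368), and the list had 0 lower genes without EpCAM+ replicate 2 or 3 or EpCAM- replicate 3 or 4. Of 34 interferon-stimulated genes outside presentation 32 were tested, and 26 were higher and 1 lower, with a median log2 fold change of 0.97. The GTPase genes *Iigp1* (2.03, edgeR adjusted p = 0.000707) and *Irgm2* (1.21, edgeR adjusted p = 0.000749) and the transcription factor gene *Irf7* (1.67, edgeR adjusted p = 0.000779) led, and *Gbp3* was lower (-0.38, edgeR adjusted p = 0.0321), a call absent without EpCAM+ replicate 2, 3 or 4 or EpCAM- replicate 1 or 2. Without EpCAM+ replicates 1 and 4, 14 were higher and 1 was lower.

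On the supply side, *Psmb9*, the immunoproteasome gene next to *Tap1*, was at 436 ± 66.7 and 339 ± 30.0 CPM (SD, n = 4) and was higher (log2 fold change 0.36, edgeR adjusted p = 0.0264). The other immunoproteasome genes did not pass, with *Psmb8* at 0.13 (95% interval -0.11 to 0.37, edgeR adjusted p = 0.346) and *Psmb10* at 0.09 (-0.11 to 0.28, edgeR adjusted p = 0.44). Of the constitutive subunits that these replace, *Psmb5* (-0.27, edgeR adjusted p = 0.0219) and *Psmb7* (-0.28, edgeR adjusted p = 0.0335) were lower, and *Psmb6* was at -0.06 (edgeR adjusted p = 0.595). Neither passed under upper-quartile scaling, by library totals, nor without EpCAM+ replicate 1, without EpCAM+ replicate 3, or without EpCAM+ replicates 1 and 4, and 1 constitutive gene was lower without EpCAM+ replicate 2, EpCAM- replicate 2 or EpCAM- replicate 4. The counts of the 3 immunoproteasome genes were 1.36 to 1.83 times those of the 3 constitutive genes in EpCAM+ and 1.14 to 1.37 times in EpCAM- libraries (log2 difference 0.35, exact permutation p = 0.0571, adjusted p = 0.229), higher in 4 of 4 pairs.

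Calls among the 13 tested supply genes went both ways, 4 lower (20.8% of all tested genes) and 2 higher (21.8%). The middle log2 fold change of this list was -0.03, close to the 0.02 over all tested genes. The 2 that rose were *Psmb9* and *Lnpep* (0.27, edgeR adjusted p = 0.0459). *Thop1* (-0.86, edgeR adjusted p = 0.00027), *Lap3* (-0.70, edgeR adjusted p = 0.000422) and *Tpp2* (-0.23, edgeR adjusted p = 0.0115), which encode enzymes that cut or destroy cytosolic peptides, led the lower genes. The higher count was 0 without EpCAM+ replicate 1, EpCAM+ replicate 4 or EpCAM- replicate 3 and 1 without EpCAM+ replicate 2, EpCAM+ replicate 3 or EpCAM- replicate 4, and the lower count was 2 under upper-quartile scaling, by library totals and without EpCAM+ replicates 1 and 4 together.

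The list of chaperones of class I assembly held 8 tested genes, including *Ganab* and *Sel1l*, which do not encode chaperones. Of the 8, 5 were lower (20.8% of all tested genes) and 0 higher (21.8%) in EpCAM+ cells, with a median log2 fold change of -0.32. The other 3 did not pass, *Tapbpl* at 0.36 (edgeR adjusted p = 0.0568), *Sel1l* at 0.17 (edgeR adjusted p = 0.221) and *Uggt1* at -0.10 (edgeR adjusted p = 0.393). *Canx*, the gene of calnexin, was at 294 to 313 CPM in EpCAM+ and 458 to 588 CPM in EpCAM- libraries, a log2 fold change of -0.78 (SE 0.09, edgeR adjusted p = 0.000228). *Calr*, the gene of calreticulin in the peptide-loading complex, was at 1100 ± 53.2 and 1860 ± 195 CPM (SD, n = 4), a log2 fold change of -0.76 (SE 0.09, edgeR adjusted p = 0.000326). *Ganab*, which encodes a glucosidase subunit that trims the glycans these chaperones bind, changed by -0.28 (edgeR adjusted p = 0.00763). These proteins act on many glycoproteins besides class I.

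**Figure D5:**
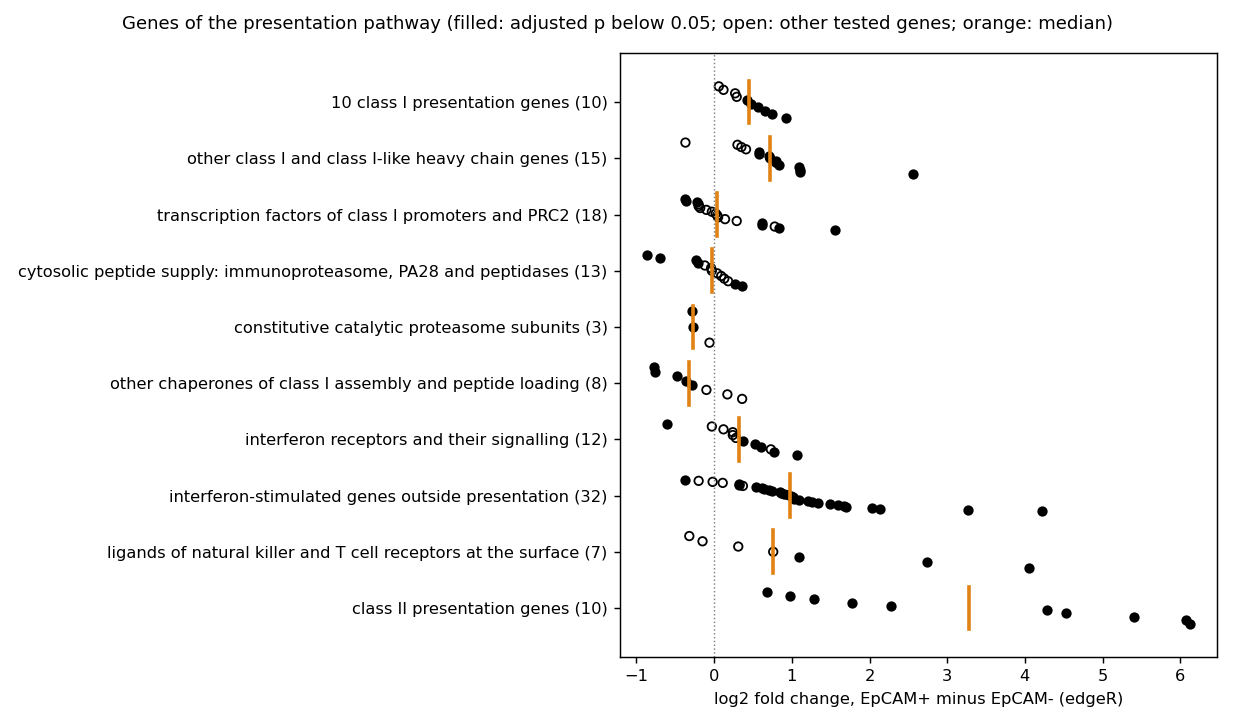
Log2 fold change of EpCAM+ minus EpCAM- (horizontal axis) of each tested gene in 10 lists of the presentation pathway, with the number of tested genes in brackets, filled points where the edgeR adjusted p was below 0.05 and the list's median in orange. The median was 0.45 for the 10 class I presentation genes, -0.32 for the list of other chaperones, 0.97 for interferon-stimulated genes and 3.28 for class II genes.

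Among surface ligands read by natural killer and T cells, 7 of 11 were tested and 3 were higher, 0 lower. They were *Cd274* (log2 fold change 1.09, edgeR adjusted p = 0.00255) and *Pdcd1lg2* (2.74, edgeR adjusted p = 0.000354), which encode the ligands PD-L1 and PD-L2, and the costimulatory gene *Cd86* (4.05, edgeR adjusted p = 0.00049). The count was also 3 without EpCAM+ replicates 1 and 4.

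The 5 genes outside these lists whose profile over the 8 libraries came closest to the mean profile of *H2-K1* and *H2-D1* were taken from 8901 genes by the root mean square difference of centred log2 CPM. They were *Ccndbp1* (difference 0.0753), *Arhgap18* (0.0871), *Epb41l2* (0.0892), *Ccng2* (0.0895) and *Cd84* (0.0901). All 5 were higher in EpCAM+ cells, which the measure of likeness itself favours, with log2 fold changes of 0.40, 0.50, 0.47, 0.42 and 0.45. *B2m* came next to them among the other members, at 0.0923, with 8 genes closer. *H2-K1* and *H2-D1*, which define the mean profile, are counted among those 8. *Tap1* (0.170), *H2-T23* (0.185), *Tapbp* (0.187), *H2-Q7* (0.198) and *Tap2* (0.208) were farther, and *Erap1* (0.260) and *Nlrc5* (0.267) the farthest of the 10.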

How the data were processed

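RNA had been amplified with SMART-Seq v4 from EpCAM+ and EpCAM- LSK cells (4 mice per genotype per the labels) and sequenced as 150-bp paired-end reads. Per the submitters' processing notes the sources name GRCm38.p6, STAR 2.6.1d, featureCounts 1.5.0-p3 and DESeq2 1.20.0. The annotation release, the use of strand and the treatment of reads that match several genes are not given in the sources used here. The authors deposited whole-number counts per gene without normalization, which all tests used, and FPKM, which served only for a second order of levels. The deposited table also has 15 columns with the authors' own comparisons, log2 fold changes and p-values, which were not used. Levels in CPM and the gene length column gave CPM per kilobase.

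Counts of all genes were filtered with filterByExpr, scaled by TMM and tested with edgeR 4.0.16 (quasi-likelihood test, two-sided, no covariates, R 4.3.3) adjusted by Benjamini-Hochberg, and an adjusted p below 0.05 counted as a call. Alternatives were DESeq2 1.42.0, limma 3.58.1 on log2 CPM with pseudocounts of 0.1, 1 and 5, DESeq2 size factors, upper-quartile scaling, library totals, filters of 1 count in any or 10 counts in every library, the replicate number as a block, and each library left out. Leaving out EpCAM+ replicates 1 and 4 together was added after seeing the data. Ratios of counts within a library were compared with exact unpaired permutation tests, and with sign flips over the numbered pairs as an alternative. Figures were drawn with matplotlib 3.10.9. On simulated data with known 2-fold changes the fit was tested and recovered 136 of 195 tested genes with 7 false among 143 calls. Every member's estimate was below 2-fold, and far more genes were called in the data than were changed in the simulation. The simulated rates therefore do not describe the members. No 2 libraries of a fraction were duplicates (chi-square per degree of freedom 10.3 to 97.4 over 12 pairs). Libraries with the same replicate number deviated together from their fraction means (correlation across genes 0.205 to 0.356 in 4 pairs, -0.216 to 0.0396 in 12 pairs with different numbers), so the numbers pair the samples. The pairing comes from these values and from the labels' numbers, which do not say whether same-numbered libraries came from 1 mouse. The authors' own comparisons also set each EpCAM+ library against the EpCAM- library of the same number.

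The members and all lists were chosen with earlier results of these data known. Named genes are the members, *Epcam*, *Zeb1*, *Kit* and *Ly6a*, up to 3 genes per direction and list with the smallest adjusted p, a fixed set of proteasome and regulator genes, *H2-M3*, the marker with the highest mean CPM of each cell type list, and the 5 genes most alike in profile. Of the genes covered by this rule, 1 is not reported here. *H2-Q6*, *H2-Q10*, *H2-Q5*, *H2-Q1*, *Gm7030*, *Gm19412* and *Cast* were named for shared sequence, and *Pax5*, *Flt3*, *Hbb-bt*, *H2-T24*, *Tapbpl*, *Sel1l*, *Uggt1*, *Csf1r*, *Ms4a6c*, *Adgre1*, *Prtn3*, *Elane*, *Krt19* and the heavy chain genes at 0 counts after their values were seen. Shared sequence was counted as exact 150-base windows of GENCODE M21 transcripts. Promoter windows came from RefSeq, and RefSeq windows and GENCODE gene starts can differ.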

Additional observations from a re-analysis of the deposited data

Results flagged for a closer look

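Within each fraction, 48 groups of 4 libraries were screened for a library far from the other 3, and chance alone gives about 1 such group in 20. For *H2-T23*, EpCAM- library 1 was at 418 CPM, while the other EpCAM- libraries were at 314 to 328 CPM. For *H2-Q7*, EpCAM+ library 2 was at 368 CPM, while the other EpCAM+ libraries were at 473 to 490 CPM. For *Nlrc5*, EpCAM- library 2 was at 10.7 CPM, while the other EpCAM- libraries were at 14.9 to 15.4 CPM. The summed level of the class II presentation genes was 959 CPM in EpCAM- library 1 and 592 to 623 CPM in the other EpCAM- libraries.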

How the results depend on the processing

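Of the 10 genes, *H2-K1*, *H2-T23*, *B2m* and *Nlrc5* passed under all 19 alternatives, and the number of members higher ranged from 4 to 8 with 0 lower in each. With each library left out in turn, the log2 fold change was 0.51 to 0.61 for *H2-K1* and 0.31 to 0.48 for *H2-D1*. *Tap1* passed with library totals (0.37, edgeR adjusted p = 0.0477) and with the replicate block (0.27), and *Tapbp* with upper-quartile scaling (0.35), library totals (0.35) and the replicate block (0.25). The block ended no call of a member. Without EpCAM+ replicates 1 and 4, *Tap1* was at -0.02 and *Tap2* at -0.04. The difference between the fractions in the log2 ratio of *H2-K1* plus *H2-D1* to *B2m*, 0.00, took either sign, -0.04 to 0.05 with 1 library left out and -0.12 without EpCAM+ replicates 1 and 4. By FPKM, 2 members took another rank of level in EpCAM+ and 2 in EpCAM-. Under upper-quartile scaling, lower genes numbered 0 of the constitutive subunits, 2 of peptide supply, 0 of interferon signalling (1 by library totals) and 0 of the interferon-stimulated genes. There 5 surface ligands and 1 gene of the chaperone list were higher. With a filter of 10 counts in every library, 1 gene of the chaperone list was higher. With the block, 1 gene of the chaperone list was higher and 1 surface ligand lower. By DESeq2, and with a filter of 1 count in any library, 1 supply gene was higher. Without EpCAM+ replicates 1 and 4, 1 factor of class I promoters was lower and 1 interferon signalling gene higher, and without EpCAM- replicate 2, 5 of those factors were lower. The cause of these changes was not tested.

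With 4 libraries per fraction and no control mice, the values compare EpCAM+ with EpCAM- cells and not Zeb1-/- with normal cells. The depth of at least 14114491 counts gave every member 144 counts or more in each library, so sampling of reads limits *Nlrc5* most. Transcript levels do not show surface class I.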

Other observations

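Markers of other blood cell types differed between the fractions in both directions. *Mpo*, a granule enzyme gene of early granulocytes, was at 781 ± 269 CPM in EpCAM+ and 10400 ± 1500 CPM in EpCAM- libraries (SD, n = 4), and *Car1*, an erythroid carbonic anhydrase gene, at 65.4 ± 63.9 and 3440 ± 2070 CPM. Of 7 tested mast cell and basophil markers 4 were lower, with *Cpa3* at 57.0 ± 5.78 and 275 ± 94.3 CPM, and of 9 tested monocyte and macrophage markers 3 were lower (*Csf1r*, *Ms4a6c* and *Adgre1*), while *Cd68*, the most abundant, was not called, at 70.7 ± 25.5 and 58.4 ± 12.3 CPM. *Cst3*, abundant in dendritic cells, was at 2090 ± 1390 and 476 ± 86.7 CPM, and *Jchain*, of plasma cells, at 1090 ± 1620 CPM in EpCAM+ libraries, where it ranged from 199 to 3520 CPM.

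All 5 tested epithelial markers were higher, with *Krt18* at 177 ± 11.3 and 80.6 ± 10.7 CPM, while *Krt19* had 0 counts in every library. Of 3 tested T cell markers 2 were higher, with *Lck* at 55.4 ± 5.23 and 21.9 ± 5.17 CPM, and 0 of 7 natural killer cell markers, *Klrd1* among them, had enough counts to be tested. Of 5 tested plasmacytoid dendritic cell markers 2 were higher and 1 lower, with *Bst2* at 110 ± 5.84 and 111 ± 13.9 CPM, and of 5 tested megakaryocyte markers 1 was higher, with *Pf4* at 96.2 ± 80.3 and 86.7 ± 57.2 CPM. *Cd34*, the most abundant LSK marker, was at 993 ± 63.2 and 819 ± 152 CPM, and *Cd79b*, of B cells, at 69.2 ± 3.76 and 56.3 ± 13.9 CPM. These values are from 4 libraries per fraction with SD.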
